A study of Homo sapiens with 12 samples.

Results

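The regions described here are stretches of the genome that a peak caller marked as 1 interval of 3000 bp or more, from start to end, in lists of N6-methyladenosine (m6A) peaks. Members were chosen by width alone: every line of the 6 peak lists whose end minus start was at least 3000 bp was taken, and such intervals were joined across lists where they overlapped by 1 bp or more with equal strand. Of 53502 intervals in all, 2128 (3.98%) were this wide, and they formed 717 joined regions covering 2.96 Mb. Width, and everything read from the same peak calls, is therefore given as a description and was not tested.

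The cells were wild-type H460, an established human line labelled as large cell lung cancer. The labels give 12 libraries, 3 in each of 4 groups. Untreated cells and cells kept for 24 h in 100 nM rapamycin, used to induce autophagy, each have input and immunoprecipitated (IP) libraries. The libraries were made from total RNA depleted of ribosomal RNA. Nothing in the labels says whether replicates came from separate cultures.

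In the GEO record all 6 peak lists belong to samples of untreated cells: lists A, C and E to the 3 inputs and lists B, D and F to the 3 IPs. Under their deposited names, however, A, B and C are con lists and D, E and F are rapamycin lists. Because of this disagreement no list was assigned to a treatment arm, and neither rapamycin with untreated cells nor input with IP was tested. Where A, B and C are set beside D, E and F below, the split is that of the deposited names. It is given as a description and is not read as an effect of rapamycin. Each value below is 1 value per list or the range over lists, without an SD or a test, and the sequencing depth behind each list is unknown.

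As background, m6A is the most abundant internal modification of mRNA. It is written by a methyltransferase complex built on METTL3 and METTL14, can be removed by FTO and ALKBH5, and is read by proteins such as those of the YTH family. The mark is dense in long internal exons and in the last exon around the stop codon, and it is sparse near splice junctions. In MeRIP-seq the antibody pulls down RNA fragments rather than bases, so neighbouring methylated sites on 1 long exon can merge into a broad interval. The lists give no gene names and no blocks within an interval, and no hg19 annotation or genome was used here, so whether these intervals are long exons, which genes they belong to and which motifs they hold was not tested.

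Wide intervals were a small share of each list's intervals but a larger share of its covered bp, counted from start to end. List A held 464 of them, B 439 and C 529. Lists D, E and F, which are shorter in all, held 265, 191 and 240. From A to F this was 3.85%, 2.94%, 4.31%, 5.48%, 4.22% and 4.90% of the list's intervals. B, the list with the most intervals, had the smallest share, and D the largest. Between 14.7% (B) and 20.5% (F) of all bp covered by a list lay in its wide intervals.

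**Figure D1:**
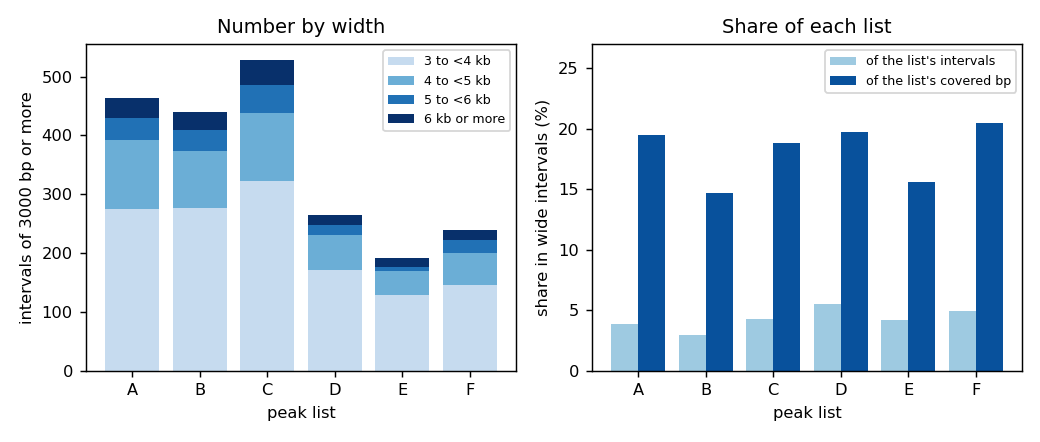
Left, number of intervals of 3000 bp or more in each of the 6 peak lists, divided by width class. Right, the share of the list's intervals and of its covered bp that they make up, in percent, where covered bp run from 14.7% in B to 20.5% in F.

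The widths fell off steeply above the minimum and were alike in all lists. Pooled over lists, 1318 wide intervals (61.9%) were under 4000 bp, 485 measured 4000 to under 5000 bp and 168 measured 5000 to under 6000 bp. The median width of wide intervals lay between 3657 bp (E) and 3777 bp (A). The 3 intervals just inside the minimum were 3000, 3000 and 3001 bp wide and had scores of 3100, 1700 and 73.9. The 3 just outside fell short of it by 1, 2 and 2 bp and had scores of 687, 79.5 and 3100. The score is the authors' value per peak, on a scale that the sources used here do not give, so scores printed for different lists are not a measure of which list has the stronger peak. Comparisons of score use the percentile within a list.

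Recurrence across lists was described next. Of the 717 regions, 509 (71.0%) were wide in at least 2 lists, 94 (13.1%) were wide in all 6 and 208 (29.0%) in 1 list. Wide calls in 2, 3, 4 and 5 lists were found for 113, 151, 83 and 68 regions. The most frequent combinations were A, B and C without the others (102 regions), all 6 lists (94), C alone (79) and A alone (54). Regions wide in all 6 lists had a median width, at their widest, of 4343 bp, against 3407 bp for those wide in 1 list. Joined regions can only grow with the number of lists, so these medians are not independent of recurrence.

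A list without a wide interval in a region often held a narrower one there. Counting intervals of any width, 690 regions (96.2%) were held by at least 2 lists and 215 (29.99%) by all 6. Recurrence by number of lists was not counted for joined regions of all widths. Whether these shares are particular to wide regions was therefore not tested. Of the 208 regions wide in 1 list, 27 had no interval in any other list. In 76 of them the widest interval of another list reached 2500 bp, in 104 it measured 1000 to under 2500 bp, and in 1 it was under 1000 bp. Thus 181 of the 208 were places where at least 1 other list had a shorter call.

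The lists differed in how they filled the 717 regions. List C had a wide interval in 528 of them, A in 463 and B in 437, whereas D had one in 265, F in 239 and E in 191. Lists A, B and C had no interval of any width in 140, 46 and 53 regions, and lists D, E and F in 272, 316 and 364. No such counts per list were made for joined regions of all widths. A list cannot be empty in a region that its own wide interval helped to build, and A, B and C each held more wide intervals. The counts of empty regions are therefore partly set by the choice of members. A pair of narrower pieces in place of a wide interval were most frequent in B, with 44 regions, against 3 (F) to 14 (E) in the other lists. Because D, E and F hold fewer intervals in total and their depth is unknown, absence from them cannot be told apart from a call below their detection.

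**Figure D2:**
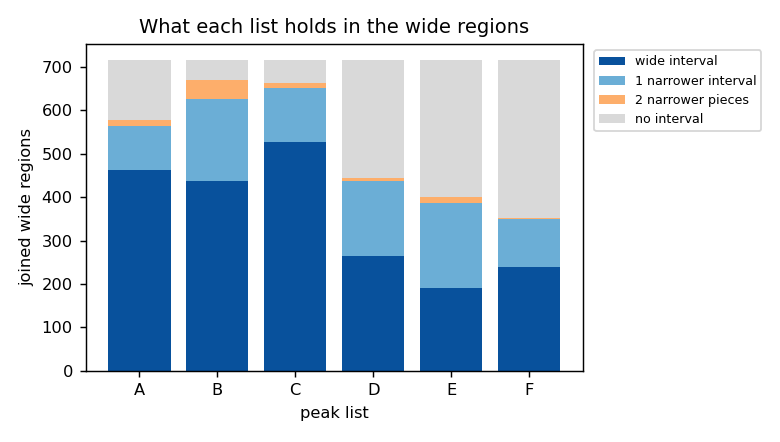
What each peak list holds in the 717 joined wide regions: a wide interval, 1 narrower interval, 2 narrower pieces or no interval. A, B and C leave 46 to 140 regions empty, and D, E and F leave 272 to 364 empty. The regions were built from the lists' own wide intervals, of which A, B and C each held more, so these counts are partly set by that choice.

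Set list against list, the share of a list's wide regions that were also wide in another ran from 30.7% (C looked up in E) to 85.4% (B looked up in C), with a median of 71.0% over the 30 ordered pairs. With intervals of any width in the other list accepted, it ran from 47.2% to 96.9%. A share of this kind depends on the number of intervals in both lists, and the part of list length in these values was not tested.

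The ends of wide intervals were shared between lists in an uneven way. There were 3167 overlapping pairs of wide intervals from different lists, and their 5′ and 3′ ends were set by the strand column, so that on the minus strand the higher coordinate is the 5′ end. Both ends were equal to the base in 1433 pairs (45.2%). In 1420 (44.8%) the 5′ end alone was equal, in 94 (2.97%) the 3′ end alone, and in 220 (6.95%) neither. Pairs with an equal 5′ end and an unequal 3′ end were thus 15.1 times as frequent as the converse. The imbalance was present on the plus strand (672 against 63 pairs) and on the minus strand (748 against 31), so it goes with the strand column and not with the direction of the coordinates.

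It was also present in each of the 15 pairs of lists, where the 5′ end alone was equal in 40.0% to 50.6% of overlapping wide intervals and the 3′ end alone in 1.33% to 5.48%. Pairs share lists and are not independent. Where the 5′ end was equal and the 3′ end was not, the 3′ ends lay a median of 203 bp apart (quartiles 65.8 and 662 bp, highest 8540 bp).

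Narrower intervals showed this imbalance to a lesser degree, and the narrowest showed its reverse. The ratio of pairs with only the 5′ end equal to pairs with only the 3′ end equal was 6.80 for intervals of 2000 to under 3000 bp, 5.89 for 1000 to under 2000 bp, 2.997 for 500 to under 1000 bp and 0.375 under 500 bp. Both ends were equal in 88.7%, 72.7%, 51.9% and 46.6% of pairs from the narrowest to the widest of these 4 classes, against 45.2% for wide intervals. Both intervals of a pair had to fall in the same class, which by construction limits the offsets in these 4 bounded classes. The wide class has no upper bound, and its 3′ offsets reached 8540 bp. Its ratio therefore comes from pairs under a looser limit than the others.

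**Figure D3:**
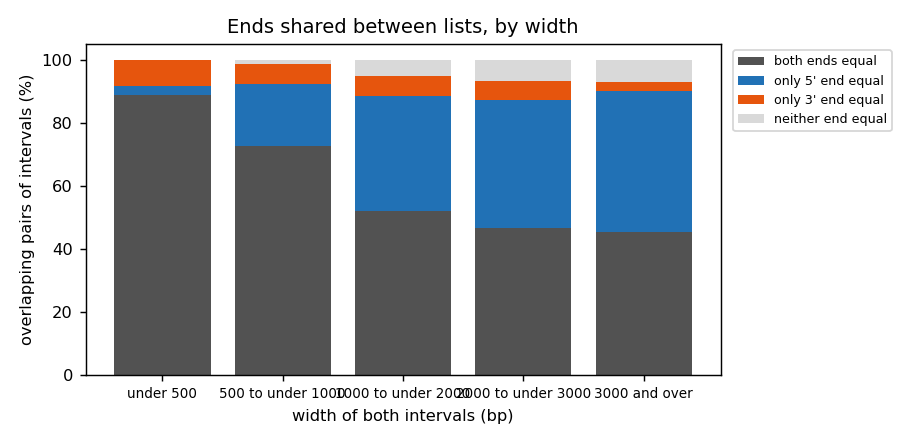
Percentage of overlapping pairs of intervals from different lists with both ends, only the 5′ end, only the 3′ end or neither end equal to the base, by the width class of both intervals. The blue part, only the 5′ end equal, grows from 3.002% under 500 bp to 44.8% at 3000 bp and over, while the orange part, only the 3′ end equal, shrinks from 8.02% to 2.97%.

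Counted by region, 280 of the 509 regions wide in at least 2 lists (55.0%) had 1 common 5′ end and differing 3′ ends among their wide intervals. In 149 (29.3%) both ends were common to all wide intervals, in 18 the 3′ end alone was common, and in 62 neither was. Among the 94 regions wide in all 6 lists, 39 had the same start and end in every list and another 39 a common 5′ end only. In 59 of the 94 the narrowest of the 6 lists' widest intervals reached at least 90% of the widest one. List E was alone in having the narrowest interval in 21 of the 94 regions, against 3 (C) to 10 (B) for the other lists.

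The narrower calls inside wide regions kept the 5′ end as well. Where a list held exactly 1 narrower interval in a region, 893 cases in all, its 5′ end equalled that of a wide interval of the region in 678 (75.9%), its 3′ end in 61 (6.83%) and neither in 154 (17.2%). By list, the 5′ share ran from 63.4% in A to 80.5% in C. These narrower intervals had a median width of 2211 bp and spanned a median of 59.5% of the widest interval of their region.

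In 95 cases a list held 2 narrower pieces in a region that was wide elsewhere. The gap between the pieces was 1 bp to 2813 bp, with a median of 242 bp. The 5′ end of the outer span equalled that of a wide interval in 80 of the 95, the 3′ end in 35 and both in 26. Together the pieces covered a median of 87.7% of the widest interval.

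The widest regions show these forms. The widest lay, in hg19 coordinates, at chr11:62283374-62301546 (minus strand), 18173 bp, with the same start and end in A, B and C and scores of 802, 3100 and 3100. D, E and F had no interval there at all.

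The second in width was at chr16:88493879-88506597 (plus strand), again in A, B and C and not in D, E or F. Its 5′ end was the same in the 3 lists, and the widths were 12364 (A), 12719 (B) and 12439 (C) bp. The third, at chr13:23903206-23915829 (minus strand), was held by A (12624 bp), C (12010 bp) and E (4084 bp). These shared the 5′ end at 23915829 and stood at score percentiles 9.33, 59.1 and 46.7 of their lists.

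Other very wide regions were held mainly or wholly by lists D, E and F. At chr7:100635838-100647302 (plus strand), D held 1 interval of 9206 bp, E one of 7952 bp after narrower pieces of 1682 and 868 bp, and F a pair of 3092 and 8346 bp. There A and C had no interval, and B had pieces of 715 and 2878 bp at score percentiles 18.8 and 19.5. The region at chr14:105403680-105414199 (minus strand) was held by D (9398 bp) and F (10262 bp) and by no other list. Neither end was shared, and the score percentiles were 57.8 and 35.3.

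At chr17:77906142-77914906 (minus strand), A, B and C each held the whole 8765 bp with both ends equal. D, E and F held 2186, 2090 and 2316 bp there, all beginning at the same 5′ end, 77914906. The widths of the first 3 lists thus lay apart from those of the other 3, and the 5′ end was common to all.

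A region at chr2:202027719-202036957 (plus strand) lacked such a fixed end. From A to F its intervals measured 9063, 6702, 8729, 3217, 3507 and 2363 bp, with 6 different starts and 6 different ends. All 6 intervals shared a central stretch, and the score percentile ran from 7.98 in F to 85.0 in A.

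The remaining 3 of the 10 widest differed again. The stretch at chr11:65265233-65273936 (plus strand; 8704 bp, score 3100) was marked in list C and had no interval of any width in the other 5 lists. The stretch at chr1:152185412-152193966 (minus strand) was wide in A (7984 bp), B (5944 bp), C (8451 bp) and D (5782 bp) and empty in E and F. That at chr17:414296-422538 (minus strand) was held by A (7851 bp), B (8101 bp) and C (8243 bp) with a common 5′ end at 422538, and by D (3862 bp) and F (5465 bp) with other 5′ ends.

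**Figure D4:**
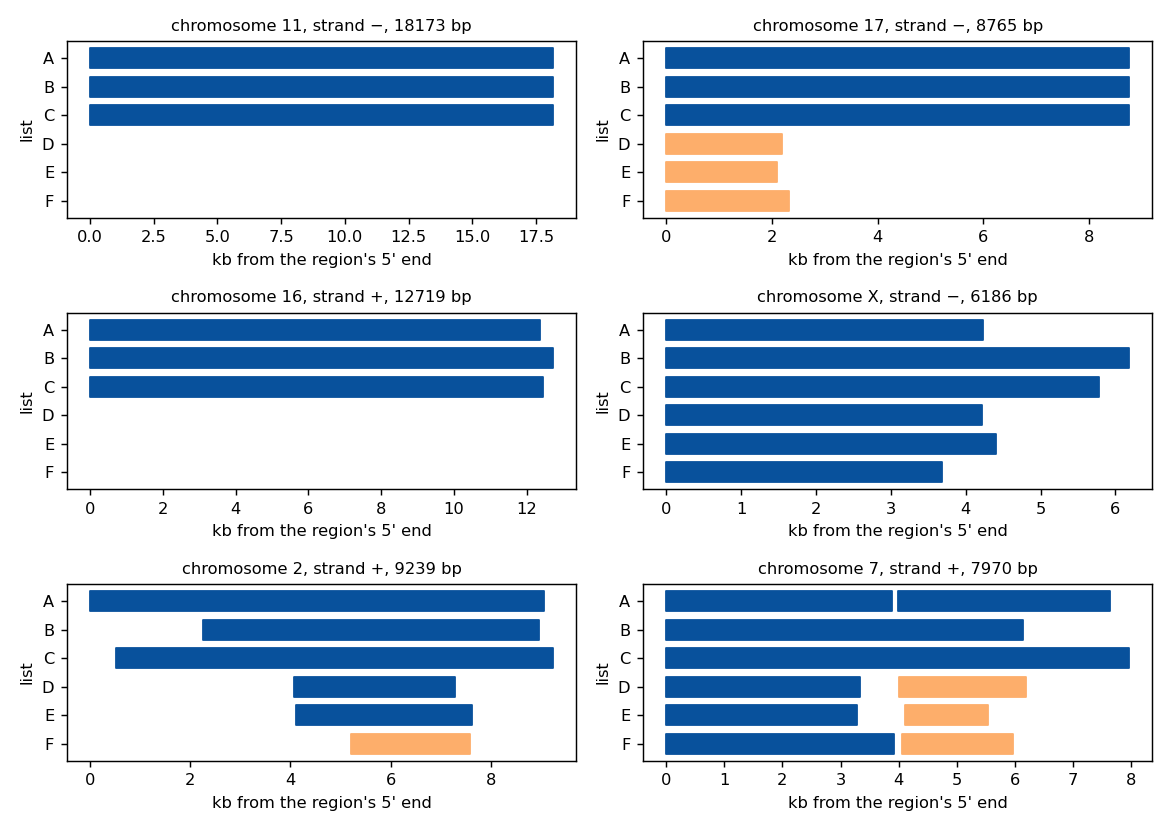
Intervals of the 6 lists in 6 wide regions, in kb from the region's 5′ end; blue bars are intervals of 3000 bp or more and orange bars are narrower. Ends are equal in A, B and C on chromosome 11, a common 5′ end with differing lengths is seen on chromosomes 17, 16 and X, no common end on chromosome 2, and on chromosome 7 a gap splits the intervals of A, D, E and F but not those of B and C.

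In 4 regions a list held 2 wide intervals. At chr7:4801815-4809784 (plus strand), C had 1 interval of 7970 bp and B one of 6135 bp, whereas A had 3887 and 3643 bp with a gap between. D, E and F had a wide piece of 3337, 3282 and 3922 bp followed by a narrower one, and all 6 lists began at 4801815. At chr15:99500290-99507759 (plus strand), A and F had 1 interval each, of 7470 and 7215 bp, and the other 4 lists had a pair of pieces, again all beginning at the same base. The other two regions were that of chromosome 7 from 100635838, described above, and chr16:19125254-19132952 (plus strand), where C had 7699 bp in 1 interval and B had 4035 and 3328 bp.

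Regions wide in all 6 lists were ranked by their lowest score percentile over the lists. The first 10 by this rank had a score of 3100 or more in A, B and C, where many intervals share the value 3100 and cannot be ranked against each other. In 8 of the 10 all lists had the same start and end: chr17:46135657-46138907 (plus, 3251 bp), chr21:34921782-34927697 (plus, 5916 bp), chr9:127572087-127577170 (plus, 5084 bp), chr8:144989315-144996563 (minus, 7249 bp), chr4:13600570-13606708 (minus, 6139 bp), chr4:187627717-187630999 (minus, 3283 bp), chr5:132532152-132535489 (minus, 3338 bp) and chr5:71489693-71496194 (plus, 6502 bp). In the first of these, D also stood at 3100, with E at 2225 and F at 2381.

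The other 2 of the 10 had a fixed 5′ end and a varying 3′ end. On the minus strand of chromosome X, with the 5′ end at 142718974, the widths from A to F were 4226, 6186, 5776, 4220, 4407 and 3686 bp. On the minus strand of chromosome 21, with the 5′ end at 16340847, A reached 5848 bp and C 5564 bp, while B, D, E and F lay close together at 4209, 4199, 4185 and 4253 bp.

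The widest region with identical ends in all 6 lists was also the widest interval of list E. It lay at chr15:43813522-43821706 (plus strand) and measured 8185 bp in each list. The first 3 lists scored it 3100, and D, E and F scored it 850, 2504 and 1080, at score percentiles of 87.8 (D) to 97.99 (A).

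The 5 widest regions that were wide in 1 list only began with that of chromosome 11 in list C. The next, at chr13:103389294-103395513 (minus strand), was held by F alone with 6220 bp at a low score (110.5, percentile 29.2). Its neighbour at chr13:103384765-103389073 was also held as a wide interval by F alone, 220 bp away on the same strand, the smallest gap between any 2 of the 717 regions. The other three had narrower partners that kept the 5′ end. At chr5:58264866-58270907 (minus strand), C had 6042 bp, and B, D and E had 2222, 1366 and 1198 bp from the same 5′ end. At chr9:119158788-119164600 (plus strand), A had 5813 bp, D 2900 bp and E 817 bp, and at chr7:5103326-5108884 (plus strand), C had 5559 bp, A 2830 bp and B 2296 bp, each from a common 5′ end.

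The 102 regions wide in A, B and C and not in D, E or F included 48 where D, E and F had no interval of any width. These 48 were 15.5% of the 310 regions wide in A, B and C. Over intervals of all widths, 35.3% of the 7229 joined regions held by A, B and C had no interval in D, E and F. These shares were not matched for width or score. A wider region offers more length for an overlap, and wide intervals ranked higher by score. Whether wide regions differ from others in this respect was therefore not tested. In the 102 regions, D held narrower intervals in 37, E in 43 and F in 15. Conversely 13 regions were wide in D, E and F and not in A, B or C. In 4 of these A, B and C had no interval, and in 5 each of them had narrower ones. The matching share over regions of all widths held by D, E and F was not computed. The 4 are thus a count only and not a trait of wide regions.

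In all, 3 of these 13 are given in more detail, chosen after their values were seen. At chr1:59246463-59249785 (minus strand), D, E and F each held the same 3323 bp at a score of 3100, at or above percentile 99.19 of their lists. A, B and C held 2392, 2863 and 2635 bp there, at scores of 1881, 3100 and 3100, so the region scored high in all 6 lists and lay under the width minimum in A, B and C. At chr16:2647652-2653191 (plus strand), all 6 intervals began at the same base. They ended after 1201, 1335 and 1253 bp in A, B and C and after 5540, 3468 and 5500 bp in D, E and F, and the narrowest of D, E and F was more than 2 times as wide as the widest of A, B and C. At chr22:21799211-21805689 (plus strand), F had 6479 bp in 1 interval, D had 3002 and 2495 bp, and E had 3057 bp. A, B and C had a pair of pieces each, of 2510 and 451 bp, 2384 and 559 bp, and 2079 and 682 bp.

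Wide intervals ranked high by score in every list, but not uniformly so. Their median score percentile within the list from A to F was 79.8, 87.5, 83.9, 73.5, 75.8 and 70.1. For intervals of 2000 to under 3000 bp it was 71.1, 79.1, 73.9, 62.4, 61.7 and 63.6 in the same order, and for those under 2000 bp it lay between 45.9 (C) and 47.5 (E and F). Within the wide intervals, Spearman's rho between width and score was weak, from 0.058 in B to 0.157 in D, as a description across intervals of 1 list. Those of 5000 bp or more had median percentiles of 78.6 (F) to 94.8 (C).

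Scores at or above 3100 were reached by 72, 214 and 200 wide intervals of A, B and C (15.5%, 48.7% and 37.8%), and by 8, 6 and 4 of D, E and F (3.02%, 3.14% and 1.67%). These shares describe each list on its own. In the whole lists, from A to F, the share was 3.74%, 11.8%, 10.0%, 1.47%, 1.57% and 1.10%. In E and F the share among intervals of 2000 to under 3000 bp (3.55% and 2.16%) was above that of wide ones. At the other end, 2.73% (B) to 11.7% (D) of wide intervals stood in the lowest 25% of their list by score, and the lowest score of a wide interval in a list was between 70.02 and 77.4.

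The score percentile was higher in regions wide in many lists than in few. Pooled over lists, its median was 59.8 in regions wide in 1 list, 67.6 in 2, 79.8 in 3, 79.0 in 4, 80.8 in 5 and 93.5 in 6 lists. The mix of lists differs between these classes. In the regions wide in all 6 lists, the median by list from A to F was 93.6, 93.9, 94.8, 85.1, 83.5 and 79.5. In B and C these medians are the percentile of the tied score of 3100. By the form of the ends the pooled median was 87.6 in regions with both ends common, 81.8 where the 5′ end alone was, 78.9 where the 3′ end alone was and 75.4 where neither was. Even among the 94 regions wide in all lists, 14 had at least 1 list in which the interval stood in the lowest 25%, and 39 stood above percentile 75 in every list.

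Wide intervals were found on all 24 chromosomes and on both strands alike, with 358 regions on the plus and 359 on the minus strand. Chromosome 1 held the most, 204 intervals (9.59%) in 62 regions, followed by chromosome 19 with 150 intervals in 54 regions and chromosome 17 with 134 in 47. These are also chromosomes with many intervals of any width. Wide intervals made up 3.98% of all intervals. Pooled over lists, their share of a chromosome's own intervals was highest on chromosomes 22 (7.02%), 13 (6.50%) and 21 (5.78%). By the median over the 6 lists the order of these 3 changed, to 8.13% on chromosome 13, 7.47% on 21 and 7.11% on 22. Chromosome 12 was lowest by either measure, at 2.59% pooled and 2.64% by the median.

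The share on chromosome 22 lay between 5.54% and 11.7% over the 6 lists, above the pooled 3.98% in each. Whole lists had shares of 2.94% (B) to 5.48% (D), and the values of chromosome 22 were above these too. On chromosomes 13 and 21 the share ran from 3.61% to 11.1% and from 3.70% to 11.5%, so in the lowest list it was below the pooled 3.98%. For these chromosomes the share in a list was not set beside that list's own share. Over all chromosomes, 94 of the 717 regions (13.1%) were wide in all 6 lists. Chromosome 12 held 27 wide regions, none of them wide in all 6 lists, and chromosome Y had none of that kind either. Chromosome 1 held 11 such regions among its 62 and chromosome 3 held 7 among 29. Chromosomes 9 and 15 held 6 each, among 36 and 24. These counts are small, and a difference between chromosomes was not tested. Chromosome Y held 3 wide regions, the fewest. The last of these and the last wide region of chromosome X were alike in list B. Each held 2 pieces with a gap of 242 bp, covering 2988 bp in all. Whether the same sequence is counted on both chromosomes was not tested.

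**Figure D5:**
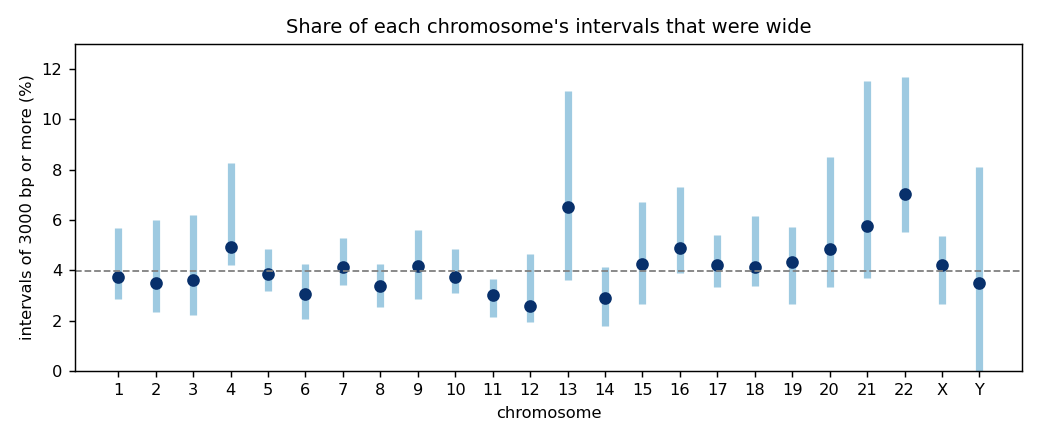
Percentage of each chromosome's intervals that were 3000 bp or more, pooled over lists (dots) and from the lowest to the highest of the 6 lists (bars); the dashed line is the 3.98% of all intervals. Chromosome 22 is the highest pooled value at 7.02%, and chromosome 12 the lowest at 2.59%.

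Wide regions were mostly scattered. The median gap from a region to the nearest other wide region on either strand was 702 kb, 129 regions (18.0%) had another within 100000 bp and 20 within 10000 bp. Of those 129, the nearest lay on the same strand for 89. Of the 1 Mb bins that held any, 420 held 1 region and 98 held 2. The fullest bins were on chromosome 19, from 53000001 to 54000000 and from 58000001 to 59000000, with 6 regions each, and on chromosome 5 from 140000001 to 141000000 with 5. None of the regions in these 3 bins was wide in all 6 lists. Intervals of all widths were not counted per bin, and the gaps between them were not measured. Whether wide regions cluster or scatter more than other intervals was therefore not tested.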

How the data were processed

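The data are 6 deposited peak lists of 6 columns without a header, which give position, a name, a score and the strand of each peak. The deposited score is 1 value per peak on a scale not given in the sources used here. Genome build hg19 and the aligner HISAT2 2.0.4 are named, per the submitters' processing notes. Peak names have the default form of MACS, per the file contents. Its settings and the libraries that went into a list are unknown. No read counts were used, so no depth or counting interval is given.

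Widths are end minus start, and positions are printed 1-based. Intervals of at least 3000 bp were joined over lists at 1 bp of overlap on the same strand (Python 3.11.15, pandas 2.3.3, numpy 2.4.6, scipy 1.17.1, matplotlib 3.10.9). As a check of the code alone, the joining was run on 300 simulated regions, set well apart and each with a common 5′ end. It recovered 7 of 7 known counts. The simulated regions had no close neighbours and no split intervals, so the joining of such cases was not tested by them. On the real wide intervals, bedtools 2.31.1 gave the same 717 regions. The score percentile is the rank within a list, ties averaged. Regions named are the 10 widest, the 10 highest by lowest percentile among those wide in all lists, the 5 widest in 1 list, the widest interval of each list, and those holding 2 wide intervals of a list. The members and these rules were chosen with earlier results of these data known, and the split by 5′ and 3′ ends was added after the data were seen. Genes, exons and sequences were not analysed here, because the annotation at hand is of GRCh38.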

Additional observations from a re-analysis of the deposited data

How the results depend on the processing

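With a width minimum of 2500 bp in place of 3000 bp, there were 3631 intervals, 1181 joined regions and 158 regions wide in all lists; at 4000 bp there were 810, 278 and 30, with 75 regions wide in 1 list. When intervals below the median score of all lists were left out, which removes weak intervals by construction, regions wide in all lists became 50. Overlapping wide pairs had both ends equal in 45.2% as reported, 43.1% at 2500 bp, 54.3% at 4000 bp, 49.1% with ends within 10 bp and 56.0% within 50 bp. The pooled median score percentile of wide intervals was 80.7 as reported, 78.2 at 2500 bp and 83.9 at 4000 bp. Leaving out each list in turn gave 1599 to 1937 wide intervals, 639 to 709 regions, 95 to 123 wide in all remaining lists and 197 to 229 in 1 list, both ends equal in 44.1% to 46.6% and a median percentile of 78.6 to 81.8. Ignoring strand left 717 regions, a reciprocal overlap of 50% gave 724, and lists cut to 4530 intervals by score gave 588. The share on chromosome 1 was 8.65% with each region counted once.

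For the split by ends, added after the data were seen, the share with only the 5′ end equal was 36.3% at 4000 bp, 45.0% at 2500 bp and 36.5% with ends within 50 bp; with only the 3′ end equal it was 2.67%, 3.99% and 2.72%. Without list D the latter was 2.34%. No paired analysis was possible because no list was assigned to a treatment arm. Annotation and sequence were not run. Depth is unknown, so a wide interval missing from a list may be absent or undetected.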

Other observations

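Several values of wide intervals fell apart between A, B and C on one side and D, E and F on the other, as did those of all intervals, and none was tested. Wide intervals numbered 464, 439 and 529 against 265, 191 and 240, and those of 5000 bp or more 72, 66 and 91 against 35, 22 and 39. All intervals numbered 12040, 14908 and 12288 against 4837, 4530 and 4899, so this separation is not one of wide intervals alone. Their shares at or above a score of 3100 were 15.5%, 48.7% and 37.8% against 3.02%, 3.14% and 1.67%, and those of all intervals 3.74%, 11.8% and 10.0% against 1.47%, 1.57% and 1.10%. The scale of the score is unknown, so these shares say nothing of which list has stronger peaks. Other values interleaved, such as the share of the list that was wide (4.31% in C and 4.22% in E) and the median width of wide intervals (3709 bp in B and 3709.5 bp in F).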
